A study of Macaca fascicularis with 7 samples.

Results

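The zinc finger genes described here are those named ZNF with a number on chromosome 19 of the cynomolgus monkey (Macaca fascicularis), measured in oocytes. They were taken by name and chromosome from the deposited count table, with at least 20 counts summed over the 7 libraries, which left 153 genes of 28161 usable gene rows. In all, 162 rows matched by name and 9 of them fell under 20 counts. The genes were chosen by their summed count, so the total of a gene over all libraries is not a result. The rule compared no groups, but a scarce gene can pass it on the counts of a single group. For such a gene the direction of a difference is in part fixed by the rule. Just inside the threshold were ZNF404 with 21 counts, ZNF835 with 22 and ZNF497 with 25, and just outside were ZNF446 with 14, ZNF358 with 10 and ZNF653 with 8.

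Most genes of this family encode proteins with a row of C2H2 zinc fingers, each of which can touch a few bases of DNA, and many carry a KRAB box at the other end. The KRAB box binds TRIM28, which brings the histone methyltransferase SETDB1 and heterochromatin proteins, so that the bound DNA, often a transposable element, is silenced. Many of the genes stand side by side on chromosome 19, where they arose by tandem duplication. A fully grown oocyte makes little new RNA while it matures, and its stored mRNAs are translated, protected or degraded as their poly(A) tails change.

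All 3 groups were wild type oocytes. MII oocytes that matured in culture (in vitro matured, IVM MII) gave 3 libraries and carry the treatment label treated. MII oocytes that had matured in vivo (IVO MII), inside the animal, gave 2 libraries, and immature oocytes of the germinal vesicle stage (GV) gave 2, and both carry the treatment label control. MII oocytes are arrested at the second meiotic metaphase and GV oocytes before meiosis resumes. The design asks how expression differs between oocytes matured by either route and between each of them and the immature oocyte. The labels do not give the number of oocytes per library or the animals they came from, so the p-values speak only of the spread among these libraries, and that spread may be technical. In such libraries fewer cells of a type and less RNA per cell cannot be told apart. Reverse transcription began at the poly(A) tail, so a count can change with the tail as well as with the number of molecules.

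Library totals ranged from 22901970 to 29245733 counts. Levels are in CPM, counts per 1000000 counts of the library, after TMM scaling (trimmed mean of M values). The TMM factors were 0.766 to 0.909 in IVM MII, 0.834 and 0.985 in IVO MII, and 1.42 and 1.38 in GV, so scaling raises MII values relative to GV values. The labels place the GV files and the MII files in separate processing folders, and that split and a comparison with GV cannot be told apart. All 14 oocyte markers had counts in every group, with a summed level of 9010 to 18098 CPM in IVM MII, 8810 and 10765 CPM in IVO MII, and 12168 and 14410 CPM in GV. The 11 cumulus and granulosa markers found summed to 97.3 to 217 CPM in IVM MII, 60.3 and 93.6 CPM in IVO MII, and 17.6 and 19.4 CPM in GV. Most of that came from TNFAIP6, FSHR and HAS2, PTX3 and PTGS2 were at 0 in all libraries, and 4, 3 and 5 of the 11 were at 0 in IVM MII, IVO MII and GV. Stroma, theca and endothelium markers, 8 found, summed to 60.8 to 89.8 CPM in IVM MII, 88.5 and 127 CPM in IVO MII, and 1081 and 1212 CPM in GV, nearly all of the GV sum from VWF, while COL3A1 and LUM were at 0 throughout. The 8 blood and immune markers found reached at most 3.67 CPM in any library. The part these markers play in the results below was not tested.

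The chromosome 19 zinc finger genes together took 0.376%, 0.342% and 0.441% of the counts in the 3 IVM MII libraries, 0.286% and 0.343% in IVO MII, and 0.565% and 0.519% in GV. In scaled CPM their sum was 4531 ± 597 in IVM MII (SD, n = 3), 3460 ± 33.9 in IVO MII (SD, n = 2) and 3866 ± 149 in GV (SD, n = 2). The order of IVM MII and GV therefore depends on the scaling, since without it the sums were 3757, 3417 and 4406 CPM in IVM MII, 2863 and 3430 CPM in IVO MII, and 5647 and 5191 CPM in GV. ZNF420, a KRAB repressor that binds p53 in human cells, held 25.6%, 17.7% and 29.6% of the family's counts in IVM MII, 19.1% and 16.7% in IVO MII, and 11.6% and 14.1% in GV. Without ZNF420, an alternative chosen after seeing the data, the scaled sums were 3648, 3162 and 3413 CPM in IVM MII, 2779 and 2901 CPM in IVO MII, and 3511 and 3229 CPM in GV. IVM MII and GV libraries then overlapped, and both IVO MII libraries lay under all the others.

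**Figure D1:**
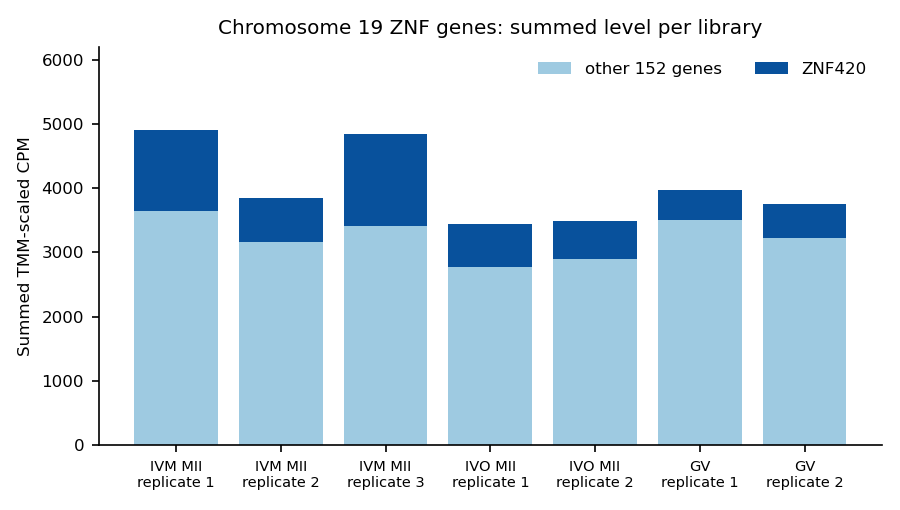
Summed TMM-scaled CPM (vertical axis) of the 153 genes in each of the 7 libraries, with ZNF420 in dark blue and the other 152 genes in light blue. The sums lie between 3436 and 4905 CPM, and the ZNF420 share is widest in IVM MII replicates 1 and 3.

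The middle of the family behaved otherwise than its sum. The median gene stood at 4.78, 4.56 and 4.81 CPM in IVM MII, 3.52 and 4.67 CPM in IVO MII, and 12.2 and 11.2 CPM in GV, and the MII and GV libraries did not overlap. At least 1 count was found for 137, 142 and 138 of the 153 genes in IVM MII, 131 and 137 in IVO MII, and 153 and 152 in GV. The 10 genes with the highest level per kilobase took 62.2%, 54.3% and 66.6% of the family's counts in IVM MII, 63.3% and 59.1% in IVO MII, and 33.4% and 35.3% in GV. The rule lets in genes that have counts in GV alone, such as ZNF835, and the 10 genes were ranked on a mean to which MII oocytes give 2 of 3 groups, so these differences are in part fixed by the choice of genes and are a description.

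Between genes, levels are compared as CPM per kilobase of exon, averaged over the 3 group means. They ranged from 0.0362 to 102 CPM per kilobase with a median of 1.95, and 25 of the 153 genes reached 10 while 52 stayed under 1. ZNF256 led with 102 CPM per kilobase, followed by ZNF420 with 94.1, ZNF284 with 62.6, ZNF17 with 59.4 and ZNF766 with 58.1. ZNF555, ZNF211, ZNF93, ZNF461 and ZNF136 completed the top 10 with 40.1 to 27.5 CPM per kilobase. ZNF93 is known in human cells for silencing LINE-1 retrotransposons, and ZNF461 is named in the rat as an ovarian repressor induced by gonadotropin. Among the 59 genes with at least 5 CPM in every group, the median coefficient of variation between libraries was 26.2% in IVM MII (n = 3), 28.5% in IVO MII (n = 2) and 10.1% in GV (n = 2).

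Of the 153 genes, 147 passed the filter on low counts and were tested. The other 6 were ZNF699, ZNF490, ZNF404, ZNF577, ZNF835 and ZNF497, with 21 to 50 counts over all libraries. The 50 counts of ZNF490 were 1 in IVM MII, 1 in IVO MII and 48 in GV replicate 1 alone. Differences were tested with edgeR's quasi-likelihood test over all 16374 genes that passed the filter, and a gene is said to be called, or to have risen or fallen, at a Benjamini-Hochberg adjusted p under 0.05. Each fold change is given on the log2 scale with its standard error (SE).

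After maturation in culture more of these genes were lower than higher. In IVM MII against GV 34 of the 147 genes fell (23.1%) and 12 rose (8.16%), where 17.8% of all tested genes fell and 18.5% rose. The median log2 fold change was -0.80 over the 147 genes, or -0.78 with genes at 0 counts in a group set to their bound, and -0.10 over all tested genes. Scaled by DESeq2's size factors or by the upper quartile, 10 and 11 genes rose and 40 and 37 fell (16.3% and 16.9%, and 19.8% and 18.9% of all tested genes), and the median was -0.93 and -0.91 for the family and -0.24 and -0.21 for all genes, so the family lay 0.69 to 0.71 under the middle of all genes with each scaling. After maturation in the animal the pattern had the same direction. In IVO MII against GV 29 of the 147 genes fell (19.7%) and 2 rose (1.36%), where 13.5% of all tested genes fell and 14.6% rose. The median was -0.87 for the family, -0.86 with the bounds, and -0.16 for all genes. Both comparisons use the same 2 GV libraries. The lower calls of both include ZNF576, which passed the count threshold on GV counts alone. Other genes called lower had MII counts that alone stay under 20. Among them were ZNF317 and ZNF433 in IVM MII (50 and 53 counts in GV), and ZNF628 and ZNF444 in IVO MII (68 and 67). The lower direction of such genes is in part fixed by the choice of genes, and so are the counts of lower calls.

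These counts rest on having both GV libraries. Without GV replicate 1, IVM MII against GV had 0 higher and 16 lower calls, and without GV replicate 2 it had 0 higher and 19 lower, where 5.5% and 7.19% of all tested genes were then called higher and 6.72% and 7.51% lower. The 12 higher calls became 6 without IVM MII replicate 1 (13.4% of all tested genes), 19 without IVO MII replicate 1 (19%) and 22 with only the groups compared in the fit (21%). In IVO MII against GV there were 0 higher and 10 lower calls without GV replicate 1 (3.77% and 4.83% of all tested genes) and 0 and 10 without GV replicate 2 (4.96% and 4.84%). The 2 higher calls there became 6 without IVM MII replicate 3 (17.3%), and the 29 lower calls became 16 without IVO MII replicate 1 (8.12%). Tools mattered there too, since DESeq2, limma voom and edgeR's newer fit called 4, 4 and 7 genes higher (17.1%, 16.0% and 17.6% of all tested genes) and 50, 49 and 46 lower (20.4%, 21% and 20.9%).

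Zinc finger genes on other chromosomes, and the other genes of chromosome 19, were described beside them without a test between the sets. Of 200 tested ZNF genes elsewhere, 37 were called higher and 28 lower in IVM MII against GV, with a median of -0.09, and 26 were called higher and 25 lower in IVO MII against GV, with a median of 0.05. Of 867 other tested genes on chromosome 19, 47 were called higher and 259 lower in IVM MII against GV, with a median of -1.56, and 42 higher and 184 lower in IVO MII against GV, with a median of -1.38. The family's shares of higher and lower calls lay nearer to those of its chromosome than to those of its namesakes elsewhere. Its medians lay between those of both sets. The median of -0.80 in IVM MII against GV was slightly nearer to the namesakes, and that of -0.87 in IVO MII against GV nearer to the chromosome.

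**Figure D2:**
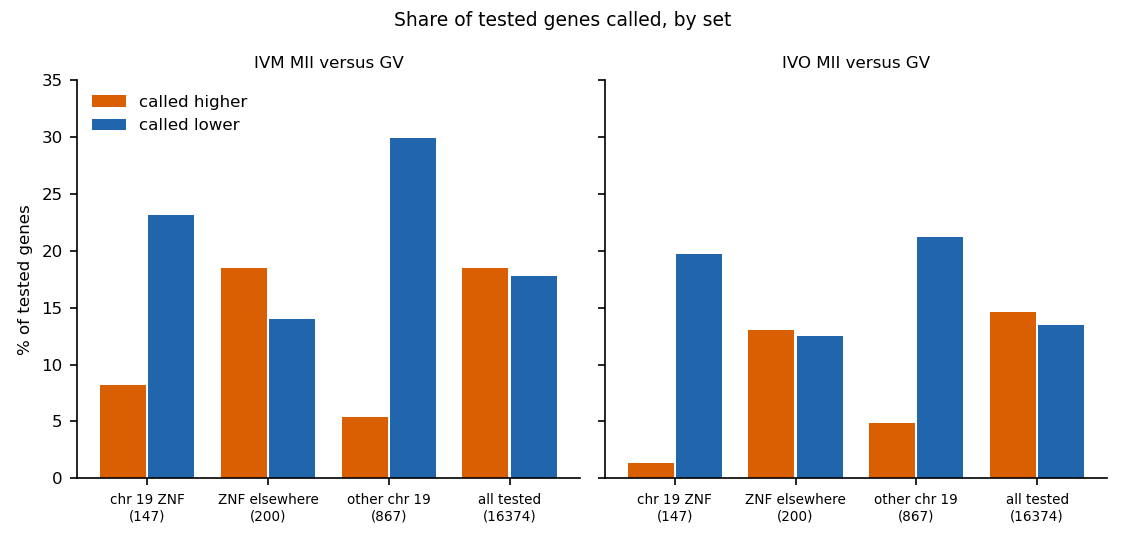
Share of tested genes (vertical axis, %) called higher (orange) or lower (blue) in IVM MII against GV (left) and IVO MII against GV (right), for the chromosome 19 ZNF genes and 3 comparison sets, with the number tested in brackets. The chromosome 19 ZNF genes have 8.16% higher and 23.1% lower calls on the left, and 1.36% and 19.7% on the right.

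The 34 genes that fell in IVM MII had a median level of 3.65 CPM in IVM MII and 31.6 CPM in GV, and the 12 that rose had 62.7 CPM in IVM MII and 15.7 CPM in GV. The 29 genes that fell in IVO MII had a median level of 1.92 CPM in IVO MII and 22.2 CPM in GV, and the 2 that rose had 69.7 CPM in IVO MII and 23.2 CPM in GV. The direction of the call enters these medians, so they are a description. The median exon length was 4428 bases for the genes that rose and 3184 bases for those that fell in IVM MII, and the order was the other way in IVO MII, with 2783 bases for the 2 that rose and 3389 bases for the 29 that fell. The part of length in these calls was not tested.

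Among the genes that rose in IVM MII, ZNF470 and ZNF599 had the highest fold changes. ZNF470 was at 18.1, 13.4 and 7.07 CPM in IVM MII, 7.03 and 8.02 CPM in IVO MII, and 2.63 and 2.18 CPM in GV, which is 2.41 on the log2 scale against GV (SE 0.58, edgeR adjusted p = 0.0127). ZNF599 was at 32.4, 27.1 and 18.8 CPM in IVM MII, 7.54 and 5.67 CPM in IVO MII, and 4.96 and 4.84 CPM in GV, which is 2.41 on the log2 scale against GV (SE 0.46, edgeR adjusted p = 0.00489). All IVM MII libraries lay above both GV libraries for each gene, and for ZNF599 they also lay above both IVO MII libraries. ZNF181 reached 90.6, 72.3 and 31.1 CPM in IVM MII, against 18.9 and 21.1 CPM in IVO MII and 13.8 and 17.6 CPM in GV, or 2.04 on the log2 scale relative to GV (SE 0.50, edgeR adjusted p = 0.0141). ZNF136 was at 244, 268 and 131 CPM in IVM MII, 79.3 and 96.6 CPM in IVO MII, and 67.2 and 62.3 CPM in GV, and it rose by 1.73 on the log2 scale (SE 0.39, edgeR adjusted p = 0.00964). In both genes every IVM MII library lay above all IVO MII and GV libraries, and IVM MII replicate 3 was the lowest of its group.

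ZNF461 and ZNF146 rose by both routes. ZNF461 was at 121, 54.2 and 100.3 CPM in IVM MII, 84.6 and 66.7 CPM in IVO MII, and 19.7 and 26.0 CPM in GV. Its log2 fold change was 2.01 (SE 0.43, edgeR adjusted p = 0.00816) for IVM MII and 1.73 (SE 0.45, edgeR adjusted p = 0.0222) for IVO MII. Every MII library lay above both GV libraries, and the IVM MII and IVO MII libraries overlapped. ZNF146, also called OZF, consists of little but zinc fingers and has no KRAB box. It stood at 53.5, 65.0 and 72.1 CPM in IVM MII, 53.6 and 74.0 CPM in IVO MII, and 23.9 and 23.3 CPM in GV, with a log2 fold change of 1.43 by either route (SE 0.34 for IVM MII and 0.36 for IVO MII, edgeR adjusted p = 0.0128 and 0.0202). ZNF790, ZNF606, ZNF792 and ZNF45 were the remaining named genes that rose in IVM MII, with log2 fold changes of 1.98 to 2.35. They averaged 12.2, 10.2, 13.3 and 61.8 CPM in IVM MII and 2.38, 2.38, 3.16 and 15.7 CPM in GV, and each had its IVM MII libraries above both GV libraries. The calls of the 10 named genes that rose in IVM MII were lost without either GV library, with edgeR adjusted p of up to 0.256. Those of ZNF790, ZNF606, ZNF792 and ZNF45 were also lost without IVM MII replicate 1, and the last 3 of these without IVM MII replicate 2. The call of ZNF606 was lost with DESeq2's size factors too (edgeR adjusted p = 0.0538). The IVO MII call of ZNF461 was lost without IVO MII replicate 1 (edgeR adjusted p up to 0.172) and that of ZNF146 without IVO MII replicate 2 (up to 0.158), and both without either GV library.

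The most abundant gene by count, ZNF420, also rose in culture. It was at 1257, 681 and 1433 CPM in IVM MII, 658 and 582 CPM in IVO MII, and 460 and 531 CPM in GV, or 1.18 on the log2 scale (SE 0.37, edgeR adjusted p = 0.0364) for IVM MII against GV and 0.32 (SE 0.39, adjusted p = 0.564) for IVO MII against GV in the same fit. Its MII libraries all lay above its GV libraries, and IVM MII replicate 2 was close to the IVO MII libraries. The call was lost with either other scaling and without IVM MII replicate 1, IVM MII replicate 3 or either GV library, with an adjusted p of up to 0.225. ZNF17 rose too, with 257, 186 and 287 CPM in IVM MII, 224 and 204 CPM in IVO MII, and 111 and 108 CPM in GV (log2 fold change 1.15, SE 0.31, edgeR adjusted p = 0.02 for IVM MII). The call of ZNF17 was lost without IVM MII replicate 1 or either GV library. ZNF256, the highest per kilobase, averaged 327 ± 47.9 CPM in IVM MII (SD, n = 3), 346 ± 117 CPM in IVO MII (SD, n = 2) and 181 ± 8.05 CPM in GV (SD, n = 2), and edgeR's quasi-likelihood test did not call it (adjusted p = 0.0669 for IVM MII and 0.0753 for IVO MII).

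ZNF576, a zinc finger gene without a KRAB box, had 0 counts in all 5 MII libraries and 306 and 374 counts in GV, or 9.26 and 11.8 CPM. Taking 3 counts in each MII library as the floor, it was at least 78.9-fold lower in IVM MII and at least 78.5-fold lower in IVO MII than in GV (edgeR adjusted p = 0.00237 and 0.005). Both calls were made in every alternative fit and with any 1 library left out. ZNF414, which also lacks a KRAB box, fell to 1, 0 and 17 counts in the IVM MII libraries, against 575 and 599 counts in GV, and IVO MII had 1 and 61. Its log2 fold change was -6.20 (SE 1.52, edgeR adjusted p = 0.0143) for IVM MII, and in IVO MII it was not called (adjusted p = 0.0976). Both GV libraries lay far above all MII libraries, of which IVO MII replicate 2 was the highest.

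ZNF233 was at 0.161, 0.423 and 0.564 CPM in IVM MII, 0.866 and 2.97 CPM in IVO MII, and 15.2 and 12.4 CPM in GV. It fell by 5.13 on the log2 scale in IVM MII (SE 0.79, edgeR adjusted p = 0.00237) and by 2.84 in IVO MII (SE 0.83, edgeR adjusted p = 0.0339). The groups did not overlap, with IVM MII lowest and GV highest. ZNF552 was at 0.966, 2.16 and 2.07 CPM in IVM MII, 5.96 and 4.55 CPM in IVO MII, and 29.5 and 22 CPM in GV, with log2 fold changes of -3.89 (SE 0.52, edgeR adjusted p = 0.00172) and -2.29 (SE 0.57, edgeR adjusted p = 0.0191) for IVM MII and IVO MII. ZNF416 was at 1.66, 1.48 and 8.12 CPM in IVM MII, 3.62 and 11.1 CPM in IVO MII, and 71.3 and 49.97 CPM in GV, with log2 fold changes of -4.00 (SE 0.82, edgeR adjusted p = 0.00662) and -3.04 (SE 0.92, edgeR adjusted p = 0.0388). For ZNF552 the same order of groups held, and for ZNF416 the 2 kinds of MII libraries overlapped below GV. The IVM MII calls of these 3 genes were made with any 1 library left out, whereas their IVO MII calls were lost without either GV library or IVO MII replicate 1, and those of ZNF552 and ZNF416 also without IVO MII replicate 2 (edgeR adjusted p up to 0.18).

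ZNF296, whose mouse counterpart is known from pluripotent cells, was at 0.0537, 0.296 and 0.564 CPM in IVM MII, 0.459 and 0.116 CPM in IVO MII, and 8.83 and 4.30 CPM in GV. It fell by 4.38 on the log2 scale in IVM MII (SE 1.05, edgeR adjusted p = 0.0127) and by 4.52 in IVO MII (SE 1.25, edgeR adjusted p = 0.0281). Both calls were lost without GV replicate 1, the higher of the 2 GV libraries (edgeR adjusted p of 0.154 for IVM MII), and that in IVO MII also without GV replicate 2 or IVO MII replicate 2 (up to 0.224). ZNF221, ZNF134, ZNF561 and ZNF574 completed the named genes that fell in IVM MII, with log2 fold changes of -3.94 to -4.54. The calls of ZNF221, ZNF134 and ZNF561 were lost without either GV library, and those of ZNF221 and ZNF134 also without IVM MII replicate 1 or 3 (edgeR adjusted p up to 0.142). The call of ZNF574 was made with any 1 library left out. In IVO MII against GV these 4 genes were not called (edgeR adjusted p of 0.0913 to 0.526).

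**Figure D3:**
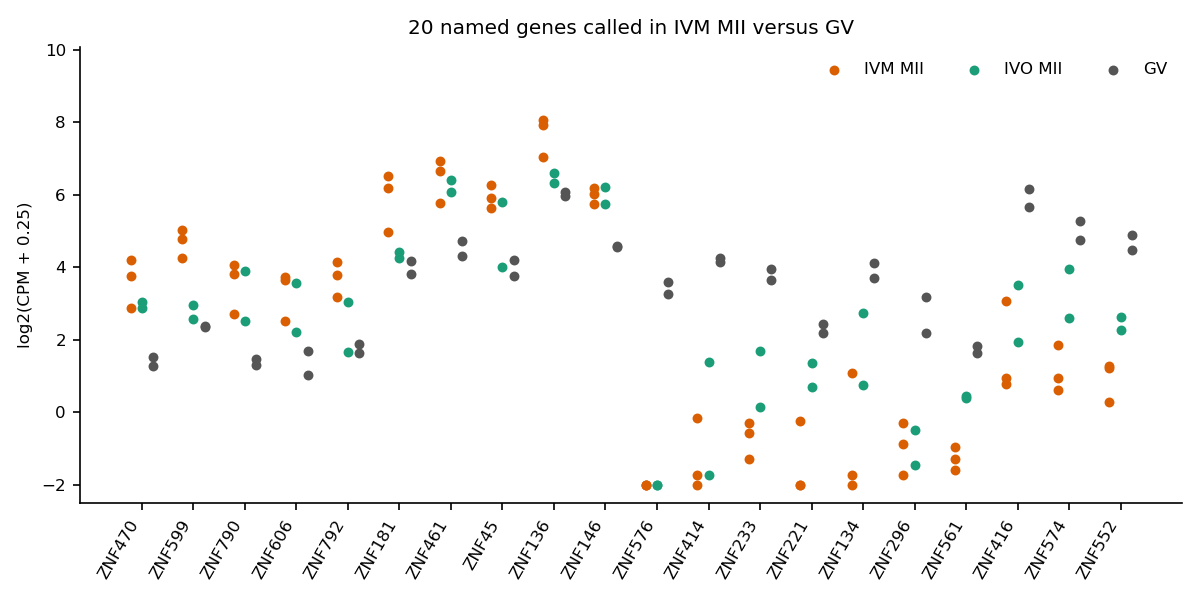
Level of the 20 named genes called in IVM MII against GV, as log2(CPM + 0.25) on the vertical axis, with 1 point per library for IVM MII (orange), IVO MII (green) and GV (grey). For each of the 10 genes on the left every IVM MII point lies above both GV points, and for each of the 10 on the right every IVM MII point lies below both, with ZNF576 at 0 CPM in all MII libraries.

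In oocytes matured in the animal the named genes that fell were in part others. ZNF560 was at 0.051 and 0.771 CPM in IVO MII, against 25.3 and 28.6 CPM in GV, and it changed by -5.97 on the log2 scale (SE 1.19, edgeR adjusted p = 0.00779), with IVM MII libraries at 4.83, 8.66 and 1.5 CPM. ZNF846 was at 0.255 and 2.51 CPM in IVO MII, against 35.6 and 36.9 CPM in GV, or -4.69 on the log2 scale (SE 0.94, edgeR adjusted p = 0.00782), and IVM MII libraries had 3.59, 3.25 and 1.99 CPM. Both genes lie within 1 stretch of the chromosome described below, and both had every MII library under both GV libraries. ZNF333 had 1 and 0 counts in IVO MII and 53 and 89 in GV, a ratio of 100 with a 95% counting interval of 17.7 to 3978, and its call was lost without IVO MII replicate 2 or either GV library (edgeR adjusted p up to 0.115).

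ZNF441 and ZNF567 fell in IVO MII and were not called in IVM MII (edgeR adjusted p = 1.0 and 0.286). ZNF441 was at 1.58 and 0.463 CPM in IVO MII, against 16.9 and 20.8 CPM in GV, or -4.22 on the log2 scale (SE 0.90, edgeR adjusted p = 0.01), and its IVM MII libraries had 21.6, 29.1 and 5.90 CPM. ZNF567 was at 0.917 and 1.5 CPM in IVO MII, against 15.5 and 21.3 CPM in GV, or -3.92 on the log2 scale (SE 0.78, edgeR adjusted p = 0.00771), and its IVM MII libraries had 11.3, 15.0 and 3.54 CPM. For both genes IVO MII lay below every other library, IVM MII replicate 3 was the lowest of its group, and the direct comparison of IVM MII with IVO MII is given below. ZNF530 and ZNF581 fell by both routes. ZNF530 had 4.19, 2.62 and 5.49 CPM in IVM MII, 1.78 and 4.67 CPM in IVO MII, and 34.1 and 47.4 CPM in GV. ZNF581, which has no KRAB box, had 2.09, 4.23 and 4.32 CPM in IVM MII, 0.815 and 2.01 CPM in IVO MII, and 27.3 and 17.2 CPM in GV. Their log2 fold changes were -3.31 and -2.64 for IVM MII and -3.65 and -3.96 for IVO MII (edgeR adjusted p of 0.00291, 0.00893, 0.00507 and 0.00542).

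By known roles, 10 genes had been listed for a part in silencing transposable elements in human cells, of which ZNF93, ZNF649, ZNF808, ZNF382 and ZNF850 are among the 153. In IVM MII against GV 0 of the 5 were called higher and 0 lower by edgeR's quasi-likelihood test, where 18.5% of all tested genes rose and 17.8% fell. Their median log2 fold change was -0.87, and 1 was called lower with either other scaling. In IVO MII against GV 3 of the 5 fell, with a median of -1.68, where 13.5% of all tested genes fell. The 3 were ZNF649 at -4.05, ZNF808, which silences a family of retroviral repeats, at -2.59, and ZNF382 at -1.68 (edgeR adjusted p = 0.0391, 0.0404 and 0.0387). All 3 calls were lost without IVM MII replicate 2, IVO MII replicate 2 or either GV library, and that of ZNF382 also without IVO MII replicate 1, with an adjusted p of up to 0.222. ZNF649 was at 0.698, 0.972 and 0.489 CPM in IVM MII, 0.561 and 0.0386 CPM in IVO MII, and 5.72 and 4.14 CPM in GV, and 8.25% of its exon bases overlap a gene on the other strand. ZNF93 was not called, with 98.2 ± 42.4 CPM in IVM MII (SD, n = 3), 132 ± 40.7 CPM in IVO MII (SD, n = 2) and 75.1 ± 7.56 CPM in GV (SD, n = 2). The level of the list as a whole was therefore set by ZNF93, and it summed to 105 to 174 CPM in IVM MII, 120 and 182 CPM in IVO MII, and 113 and 122 CPM in GV.

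ZNF274 binds the 3' ends of other zinc finger genes in human cells and brings SETDB1 there. It was at 3.11, 6.21 and 9.36 CPM in IVM MII, 2.4 and 5.48 CPM in IVO MII, and 30.7 and 33.7 CPM in GV. It fell by 2.37 on the log2 scale in IVM MII (SE 0.56, edgeR adjusted p = 0.0127) and by 3.03 in IVO MII (SE 0.67, edgeR adjusted p = 0.0117), and no MII library reached the GV libraries. Both calls were lost without either GV library, and the IVO MII call without IVO MII replicate 1 (edgeR adjusted p up to 0.0718). In its list of imprinted, placental or germline genes 2 of 4 genes fell and 0 rose in each comparison with GV. Of all tested genes 17.8% fell and 18.5% rose in IVM MII, and 13.5% fell and 14.6% rose in IVO MII. The other gene of the list that fell was ZNF229, at -2.32 for IVM MII and -2.93 for IVO MII (edgeR adjusted p = 0.00451 and 0.00489), with calls made in every alternative. ZNF331, an imprinted gene in humans, was not called, at 27.1, 26.9 and 32.5 CPM in IVM MII, 24.9 and 33.7 CPM in IVO MII, and 20.2 and 13.3 CPM in GV. ZNF541, needed for meiosis in mouse spermatocytes, was not called either, and averaged 1.17 ± 0.536 CPM in IVM MII (SD, n = 3), 3.05 ± 1.58 CPM in IVO MII (SD, n = 2) and 4.17 ± 0.415 CPM in GV (SD, n = 2).

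Among 5 genes known from RNA processing, DNA damage or p53 control, 2 rose (ZNF146 and ZNF420) and 2 fell (ZNF574 and ZNF473) in IVM MII against GV. Of all tested genes 18.5% rose and 17.8% fell there. With either other scaling 1 of the 5 rose and 2 fell. With TMM scaling ZNF146 alone of the 5 was called in IVO MII against GV, where 14.6% of all tested genes rose and 13.5% fell. ZNF473, which takes part in histone pre-mRNA processing, was at 5.31, 5.28 and 6.36 CPM in IVM MII, 3.16 and 8.02 CPM in IVO MII, and 19.5 and 18.0 CPM in GV. Its log2 fold change was -1.73 (SE 0.50, edgeR adjusted p = 0.0273) for IVM MII and -1.74 (SE 0.57, edgeR adjusted p = 0.0503) for IVO MII, so the sizes lay side by side and the threshold fell between them. The IVM MII call was lost without IVM MII replicate 1 or 2 or either GV library (edgeR adjusted p up to 0.159). ZNF574 was at 1.29, 1.69 and 3.35 CPM in IVM MII, 5.76 and 15.3 CPM in IVO MII, and 38.7 and 26.5 CPM in GV. Its groups did not overlap, and it fell in IVM MII by 3.94 on the log2 scale (SE 0.61, edgeR adjusted p = 0.00245).

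Of 25 genes listed as lacking a KRAB box, 16 are among the 153, and their median log2 fold change was -2.33 in IVM MII against GV. There 1 rose and 6 fell, where 18.5% of all tested genes rose and 17.8% fell. In IVO MII against GV the median was -2.09, and 1 rose and 5 fell, where 14.6% of all tested genes rose and 13.5% fell. ZNF146 was the gene that rose in both. Those that fell in IVM MII included ZNF576, ZNF414, ZNF579 and ZNF296, and those that fell in IVO MII included ZNF576, ZNF628, ZNF524 and ZNF296. Most of them were scarce in MII oocytes. In this list ZNF576, ZNF628 and ZNF784 passed the count threshold only with their GV counts. The medians of the list are therefore in part fixed by the choice of genes. The IVO MII call of ZNF628 was lost without any 1 of 6 libraries and that of ZNF524 without any 1 of 4 (edgeR adjusted p up to 0.26), and the IVM MII call of ZNF579 without IVM MII replicate 1 or either GV library (up to 0.18). ZNF579 had 2 counts in IVM MII, 55 in IVO MII and 64 in GV, and its ratio of GV to IVM MII was 34.1 with a 95% counting interval of 9.06 to 287. ZNF628 had 0 counts in IVO MII and 68 in GV, at least 7.86-fold lower, and 7 in IVM MII. Summed, the list reached 103 to 123 CPM in IVM MII, 84.3 and 129 CPM in IVO MII, and 153 and 173 CPM in GV.

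Along the chromosome the 162 rows matched by name fell into 18 clusters when a gap of over 1 Mb between neighbouring starts began a new one, and 8 of the clusters held at least 5 of the 153 genes. Positions are those of the deposited table, and the sources used here do not give its genome build. The cluster counts stand beside the shares over all tested genes, with no test. These were 18.5% higher and 17.8% lower in IVM MII against GV, and 14.6% and 13.5% in IVO MII against GV. A cluster of 5 genes at 35087427 to 35378115, from ZNF302 to ZNF792, had 3 genes that rose and 0 that fell in IVM MII against GV, and its median change was 2.04 on the log2 scale. In IVO MII against GV the same 5 genes had 0 calls in either direction by edgeR's quasi-likelihood test and a median of 0.35. The 3 genes were ZNF599, ZNF792 and ZNF181, and ZNF302 and ZNF30 were not called. Summed, the cluster stood at 332, 319 and 142 CPM in IVM MII, 81.6 and 81.4 CPM in IVO MII, and 114 and 118 CPM in GV. All IVM MII libraries lay above all others, by the least in replicate 3. Like all higher calls among the 147 genes, these 3 were not made with 1 GV library left out.

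The neighbouring cluster of 21 genes at 36727969 to 38197354, from ZNF146 to ZNF573, held 4 genes that rose and 1 that fell in IVM MII against GV, with a median of 0.74. The 4 were ZNF790, ZNF461, ZNF146 and ZNF420, and the 1 was ZNF585A. In IVO MII against GV 2 of its genes rose and 4 fell, with a median of 0.09. ZNF461 and ZNF146 were the 2, and ZNF567, ZNF585A, ZNF382 and ZNF571 the 4. Its summed level, led by ZNF420, was 1824, 1127 and 1955 CPM in IVM MII, 1008 and 964 CPM in IVO MII, and 783 and 907 CPM in GV. With either other scaling 3 of the 21 genes rose and 2 fell in IVM MII against GV. Between them these 2 neighbouring clusters held 7 of the 12 genes that rose in IVM MII with TMM scaling. As shares of tested genes, 3 of 5 and 4 of 21 rose, where 8.16% of the family and 18.5% of all tested genes rose.

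At 8905049 to 10019915, from ZNF414 to ZNF846, a cluster of 10 genes went the other way. Of its 9 tested genes 0 rose and 5 fell in IVM MII against GV, where 18.5% of all tested genes rose and 17.8% fell. The median was -3.62, or -2.53 with genes at 0 counts set to their bound. In IVO MII against GV 0 rose and 2 fell, with a median of -2.88, where 14.6% of all tested genes rose and 13.5% fell. The genes that fell in IVM MII were ZNF414, ZNF317, ZNF561, ZNF266 and ZNF846, and in IVO MII they were ZNF560 and ZNF846. Of these, ZNF317 passed the count threshold only with its GV counts. Together the genes of the cluster stood at 29.1, 33.7 and 27.2 CPM in IVM MII, 30.7 and 69.6 CPM in IVO MII, and 137 and 143 CPM in GV. No MII library came near the GV libraries, and IVO MII replicate 2 was the highest of the MII libraries.

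The cluster nearest the end of the chromosome, at 56306302 to 59098650, was the largest with 48 genes. Of its 46 tested genes 3 rose and 14 fell in IVM MII against GV, with a median of -1.64, and 0 rose and 10 fell in IVO MII against GV, with a median of -1.55. Of all tested genes 18.5% rose and 17.8% fell in IVM MII, and 14.6% rose and 13.5% fell in IVO MII. Its summed level changed little beside the spread, with 1114 ± 164 CPM in IVM MII (SD, n = 3), 1157 ± 61.3 CPM in IVO MII (SD, n = 2) and 1239 ± 151 CPM in GV (SD, n = 2). The abundant genes ZNF256, ZNF17 and ZNF211 stand in this cluster beside those that fell, such as ZNF416, ZNF530 and ZNF552. A cluster of 19 genes at 44328014 to 45828986, from ZNF576 to ZNF296, had 1 gene that rose and 8 that fell among 18 tested in IVM MII against GV, with a median of -0.95, and 0 that rose and 7 that fell in IVO MII against GV, with a median of -1.36. ZNF45 was the gene that rose. ZNF226, the most abundant of those that fell, was at 59.7, 51.1 and 48.4 CPM in IVM MII, 41.4 and 39.8 CPM in IVO MII, and 104.7 and 104.6 CPM in GV. Its IVM MII call was lost without IVM MII replicate 1 or 2 or either GV library. The IVO MII call of ZNF226 was lost without IVO MII replicate 1 or either GV library.

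Of the other 3 clusters, the 22 genes at 52311862 to 54397486 had 0 higher and 1 lower call in IVM MII against GV and 0 higher and 2 lower in IVO MII against GV among 21 tested, with medians of -0.78 and -0.86. The 10 genes at 11819738 to 12851563, of which 9 were tested, had 1 higher call (ZNF136) and 1 lower in IVM MII, and 0 higher and 1 lower in IVO MII. The 5 genes at 2742729 to 2900358 had 0 higher and 2 lower calls in IVM MII and 0 higher and 1 lower in IVO MII, and the sign of their median in IVM MII against GV changed with the scaling, from 0.01 to -0.12 and -0.10. Neighbouring members of a cluster often share sequence, and the sources used here do not say how reads with several matches were counted, so a level can be shared between near copies. Exons of 23 of the 153 genes overlap another row, 9 of them on the same strand, and 2 genes, ZNF224 and ZNF607, overlap by 10% or more of their exons.

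**Figure D4:**
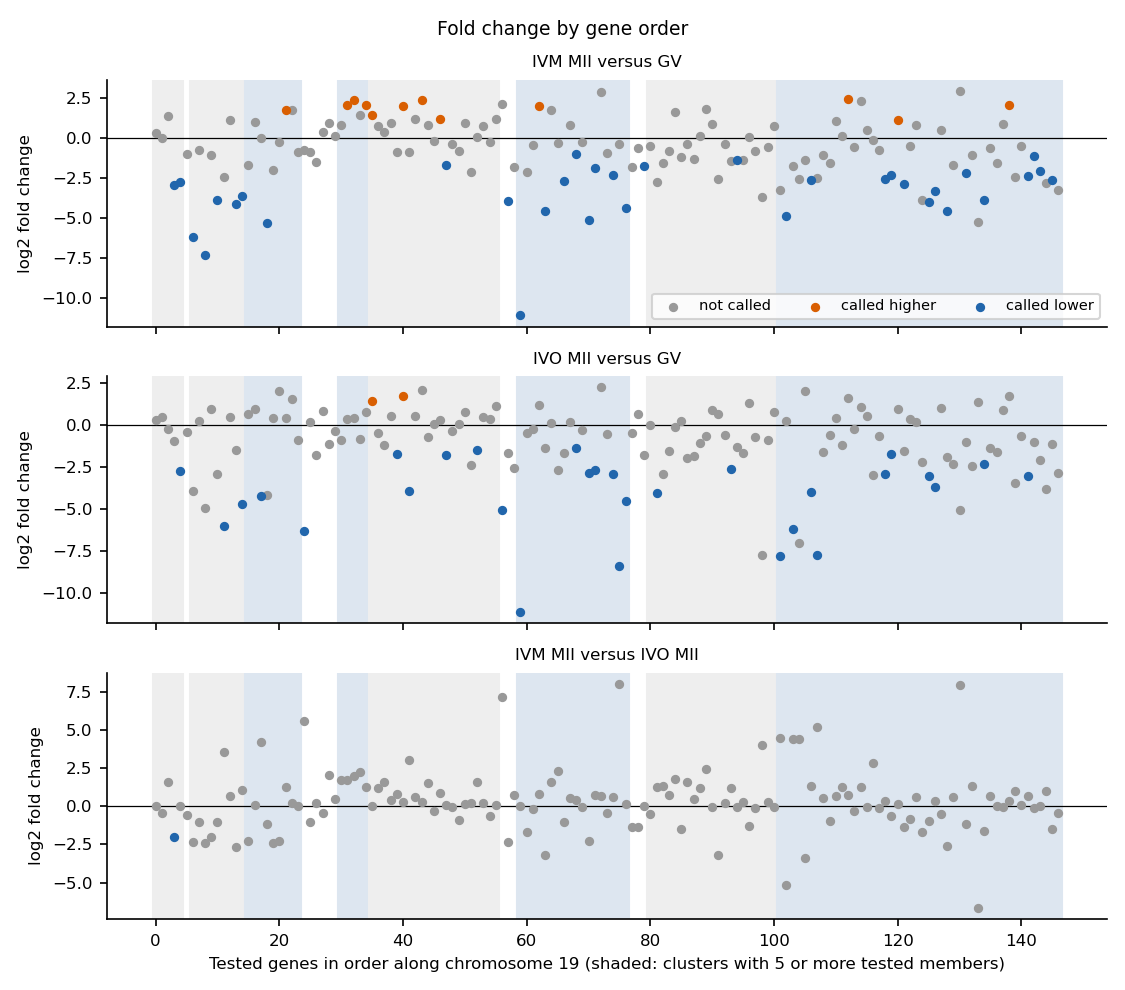
Log2 fold change (vertical axis) of the 147 tested genes in order along chromosome 19 (horizontal axis, rank), for IVM MII against GV, IVO MII against GV and IVM MII against IVO MII from top to bottom. Orange and blue points are called higher and lower, grey points are not called, shading marks clusters with 5 or more tested genes, and genes with 0 counts in a group are drawn at their fitted value. Of the 12 orange points in the top panel, 7 lie in the neighbouring clusters of 5 and 21 genes.

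The partners through which KRAB zinc finger proteins act were described from a list of 23 names, of which 21 had a row and 20 were tested. The list also holds the zinc finger genes ZFP57 and ZNF445. The summed level of the 21 was 6928 to 7917 CPM in IVM MII, 5339 and 6973 CPM in IVO MII, and 1974 and 2132 CPM in GV. Most of that sum came from DNMT1, UHRF1, SUMO2, PPHLN1 and ATRX, with means of 2696, 1439, 1115, 809 and 595 CPM in IVM MII. In IVM MII against GV 8 of the 20 (7 with DESeq2's size factors) rose and 1 fell around a median of 0.78 on the log2 scale, where 18.5% of all tested genes rose and 17.8% fell. Of the 20, 6 rose and 0 fell in IVO MII against GV, with a median of 0.57, where 14.6% of all tested genes rose and 13.5% fell. TRIM28, the protein that the KRAB box binds, was at 12.1, 11.8 and 6.51 CPM in IVM MII, 8.36 and 9.45 CPM in IVO MII, and 6.71 and 8.03 CPM in GV, and was not called in either (edgeR adjusted p = 0.483 and 0.726). SETDB1 was not called either, at 8.53, 13.3 and 11.6 CPM in IVM MII, 16.8 and 16.0 CPM in IVO MII, and 13.9 and 15.8 CPM in GV.

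FAM208A, the older symbol of TASOR and a subunit of the HUSH silencing complex, was at 380, 344 and 278 CPM in IVM MII, 505 and 291 CPM in IVO MII, and 29.8 and 40.7 CPM in GV. It rose by both routes, with log2 fold changes of 3.25 and 3.50 (edgeR adjusted p = 0.00144 and 0.0021). PPHLN1, another HUSH subunit, DNMT1, the maintenance DNA methyltransferase, and the chromatin remodellers ATRX and SMARCAD1 rose by both routes as well, as did SUMO2, with log2 fold changes of 1.48 to 2.99. UHRF1, which guides DNMT1, and CBX3, a heterochromatin protein, rose in IVM MII, at 1.25 and 2.13. MORC2, which works with HUSH, fell by 3.14 on the log2 scale in IVM MII (SE 0.64, edgeR adjusted p = 0.00674) and was not called in IVO MII (adjusted p = 0.0692). ZFP57, which protects imprints through TRIM28, had 0 counts in all 7 libraries, and ZNF445, which shares that role and lies on another chromosome, was not called in any comparison.

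Few genes of the family were called between the 2 routes of maturation. In IVM MII against IVO MII 0 of the 147 genes were called higher and 1 lower by edgeR's quasi-likelihood test, where 0.892% and 0.58% of all tested genes were called higher and lower (0.776% and 0.763% with upper quartile scaling). At an unadjusted p under 0.05 in edgeR's test there were 38 of the 147, beside 3460 of all 16374 tested genes. DESeq2, which left 5 of the 147 without an adjusted p, called 16 higher and 9 lower and limma voom 1 higher and 2 lower, where they called 7.55% and 1.7% of all genes higher and 4.95% and 1.34% lower. The median log2 fold change of the family was 0.20, or 0.15 with genes at 0 counts set to their bound, and 0.0 over all genes. edgeR's newer fit called 5 higher and 3 lower (2.71% and 2.02% of all genes), and with no filter on low counts 6 were called higher and 3 lower (2.13% and 1.23%). Upper quartile scaling gave 2 lower calls, and a fit of only the groups compared gave 0 (0.184%). With other scalings the family's median was 0.14 and 0.08 and that of all genes -0.02 and -0.11. Without IVM MII replicate 3 the test called 13 genes higher and 4 lower, where 4.86% and 3.03% of all tested genes were then called, and without IVO MII replicate 1 it called 1 higher and 1 lower (1.45% and 0.636%), the lower being ZNF177. With any of the other 5 libraries left out it called 0 in either direction.

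The gene called lower was ZNF57, which is not the imprint protector ZFP57. It was at 4.83, 4.35 and 5.57 CPM in IVM MII and 22.6 and 16.2 CPM in IVO MII, or -1.98 on the log2 scale (SE 0.39, edgeR adjusted p = 0.0499), and GV libraries had 45.1 and 30.3 CPM. The 3 groups did not overlap. Its adjusted p lay just under the threshold, and over 15 alternatives it ranged from 0.000119 to 0.153, with the call lost in 8 of them. Among those 8 was the omission of any single library other than IVM MII replicate 3.

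The 7 genes next by unadjusted p were not called, and their libraries are given for that reason as values. ZNF177 had 8.58, 8.49 and 6.81 CPM in IVM MII, against 22.6 and 42.8 CPM in IVO MII (edgeR adjusted p = 0.0513), and 4.33% of its exon bases overlap a gene on its own strand. ZNF546 had 82, 29 and 152 counts in IVM MII, against 0 and 1 in IVO MII, a ratio of 174 with a 95% counting interval of 30.9 to 6895 (edgeR adjusted p = 0.0515). ZNF441, ZNF571, ZNF599 and ZNF567 had log2 fold changes of 4.22, 1.58, 1.98 and 3.03 (edgeR adjusted p of 0.0546 to 0.0719). In all 5 of these genes from ZNF546 on, every IVM MII library lay above both IVO MII libraries. ZNF574 stood at -2.31 on the log2 scale (SE 0.59, edgeR adjusted p = 0.0812), with its IVM MII libraries below both IVO MII libraries. Each of these 7 genes was called by DESeq2, and by edgeR when IVM MII replicate 3 was left out.

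**Figure D5:**
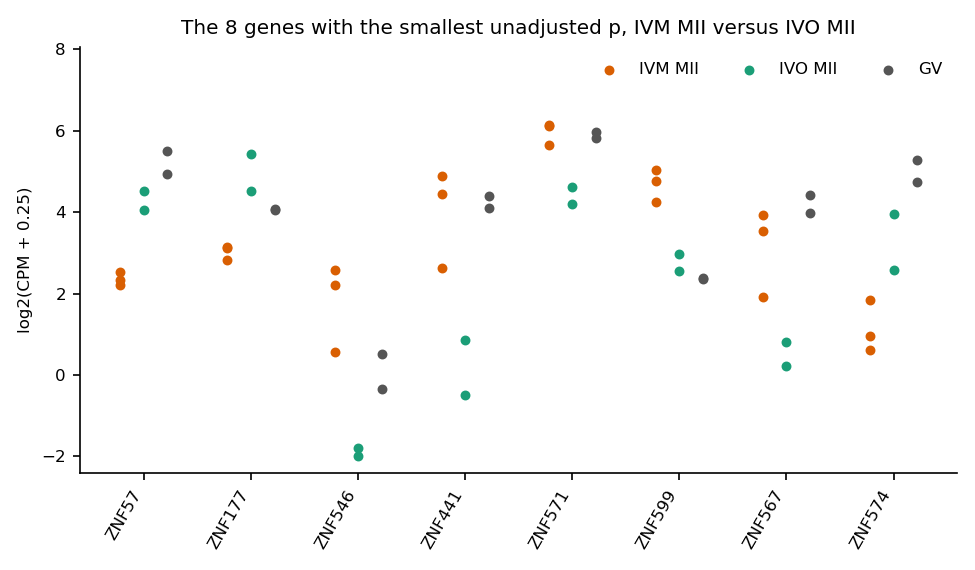
Level of the 8 genes with the smallest unadjusted p in IVM MII against IVO MII, as log2(CPM + 0.25) on the vertical axis, with 1 point per library for IVM MII (orange), IVO MII (green) and GV (grey). In each gene the IVM MII and IVO MII points do not overlap, with ZNF57, ZNF177 and ZNF574 lower in IVM MII and the other 5 higher.

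By position, the cluster from ZNF302 to ZNF792 had positive fold changes between the routes in 5 of 5 genes, with a median of 1.69 and none called by edgeR (ZNF302 at 159 ± 67.3 CPM in IVM MII, SD, n = 3, and 49.2 ± 3.48 CPM in IVO MII, SD, n = 2). In the cluster from ZNF146 to ZNF573, 16 of 21 genes were positive, with a median of 0.28. The cluster from ZNF414 to ZNF846 had a median of -1.05 over 9 genes. In the cumulus and granulosa list TNFAIP6 was at 149, 115 and 55.6 CPM in IVM MII and 46.1 and 18.2 CPM in IVO MII. FSHR was at 53.5, 30.3 and 21.9 CPM in IVM MII and 6.01 and 3.32 CPM in IVO MII. HAS2 went the other way, at 13.5, 9.72 and 19.5 CPM in IVM MII and 39.4 and 38.6 CPM in IVO MII. These 3 were the only markers of the list that were tested, and 0 were called between the routes. The part of cumulus and granulosa cells in the values of these clusters was not tested.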

How the data were processed

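The deposited values are the authors' raw counts, 1 row a gene in the layout of featureCounts, from 7 libraries of poly(A)-primed, template-switched and tagmented cDNA read as pairs of 100 bases, per the labels' protocols. Trim Galore 0.6.7, featureCounts 2.0.1, SAMtools 1.15.1, DESeq2 and Bowtie2 2.4.5 are named, in no order, per the submitters' processing notes. For the build, the strand setting and the treatment of reads with several matches, the entry is: not given in the sources used here. An aligner that does not split reads over introns, such as Bowtie2, can lose reads that cross exon junctions.

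Groups came from the labels. The table's 10 broken lines (MACF1, NEB, TTN) were left out and 26 names turned into dates stayed without a symbol. All deposited columns of counts belonged to the series. Counts of all 7 libraries entered 1 fit with edgeR 4.0.16 (glmQLFit in its older form, glmQLFTest, TMM, filterByExpr by group) in R 4.3.3, two-sided, with Benjamini-Hochberg adjustment over all tested genes. Scripts were tested on simulated data. Alternatives used DESeq2 1.42.0, limma 3.58.1, other scalings, filters and samples. Python 3.11.15 with pandas 2.3.3 prepared the tables.

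A count of 0 stands for a floor of 3 counts in each library, 0.0907 to 0.161 CPM. Bounds and 95% intervals (exact binomial) cover counting error only, since copies made by PCR are not independent molecules. The genes and lists were chosen with earlier results of these data known. Named genes are, per comparison, the 10 highest and 10 lowest fold changes among called genes with no overlap between libraries and at least 2 CPM in the higher group. Where fewer than 5 were called, the 8 smallest unadjusted p were added. The 10 highest levels per kilobase and up to 4 called genes per list were also named, and ZNF473, ZNF226, ZNF302, ZNF331, ZNF541, the partner genes with values and other genes that complete a count were chosen after their values were seen. A planned search of the proteins for fingers and KRAB boxes was not run, and no sequences are used here.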

Additional observations from a re-analysis of the deposited data

How the results depend on the processing

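Each count of called genes was recomputed under 15 alternatives. For IVM MII against GV, 12 higher calls became 22 with only the groups compared, and 0 to 19 with 1 library left out, where 34 lower calls became 16 to 46. For IVO MII against GV, 2 higher calls became 4 with DESeq2, 4 with limma voom and 7 with the newer edgeR fit, and 0 to 6 with 1 library left out, and 29 lower calls became 50, 49 and 46, and 10 to 39. For IVM MII against IVO MII, 0 higher calls became 16 with DESeq2, 1 with voom, 5 with the newer fit, 6 with no filter and 11 with the replicate block (4.78% of all genes higher and 2.78% lower), and 0 to 13 with 1 library left out. The 1 lower call there became 9, 2, 3, 3 and 2 in the same order, 2 with upper quartile scaling and 0 with only the groups compared, and 0 to 4 with 1 library left out. The 39 lower calls for IVO MII against GV were those without IVM MII replicate 3. Of all tested genes 16.8% were then called lower, beside 13.5% with all 7 libraries. The 46 lower calls for IVM MII against GV were those without IVO MII replicate 2. The share of all tested genes called lower was then larger as well. The cause of these changes was not tested. Where a left-out library leaves 1 in a group, it is assumed to vary like the other groups.

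The labels give samples only a shared replicate number, and they were treated as unpaired. Correlations of same-numbered libraries' deviations ran from -0.15 to 0.21. They cannot decide on pairing, since the deviations of 2 libraries in a group mirror each other. With the number as a block, IVM MII against GV had 12 higher and 32 lower calls (18.2% and 17.3% of all tested genes). IVO MII against GV then had 2 and 36 (15.3% and 14.8%). Gaps of 2 Mb gave 11 clusters in place of 18. Of the named calls, 6 of 20 for IVM MII against GV, 7 of 12 for IVO MII against GV and 0 of 1 between the routes were made in every alternative, and 0 changed sign. The 2 or 3 libraries a group limit the precision of each value.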

Other observations

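Zinc finger genes of chromosome 19 with names other than ZNF were looked at after the values were seen. They were ZFP82, ZFP30, ZFP28, ZIK1, ZSCAN4, ZSCAN1 and ZSCAN22, and all 7 were tested. ZIK1 was at 1.56, 7.40 and 1.92 CPM in IVM MII, 2.14 and 5.05 CPM in IVO MII, and 31.8 and 24.4 CPM in GV. It fell by 2.95 on the log2 scale in IVM MII (SE 0.74, edgeR adjusted p = 0.0152) and by 2.96 in IVO MII (SE 0.86, edgeR adjusted p = 0.0329), with all MII libraries below both GV libraries. The other 6 were not called in either comparison with GV. ZSCAN4, known in the mouse for its burst of expression at genome activation, was at 18.2, 3.21 and 19.6 CPM in IVM MII, 12.8 and 18.0 CPM in IVO MII, and 21.9 and 17.0 CPM in GV. Its low value in IVM MII replicate 2 has no match in the other IVM MII libraries. Between IVM MII and IVO MII edgeR's quasi-likelihood test called 0 of the 7 in either direction, and ZFP82 was at 26.6, 22.2 and 40.5 CPM in IVM MII, against 71.6 and 70.1 CPM in IVO MII (edgeR adjusted p = 0.102).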
